A study of Mus musculus with 19 samples.

Results

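Integrins and laminins are the receptors and ligands of cell adhesion to the basement membrane. They were followed here in the ipsilateral and contralateral retinal ganglion cells of the mouse embryo. All protein-coding genes named Itga, Itgb, Lama, Lamb or Lamc with a number or letter were taken, which gave 37 of the 47069 genes in the count tables. These were 18 integrin α subunits, 8 integrin β subunits, 5 laminin α chains, 3 laminin β chains and 3 laminin γ chains. The study compared ganglion cells that keep their axon on the same side of the brain (iRGCs) with those whose axon crosses the midline (cRGCs), at E16.5, by RNA-seq of 3 libraries per population. The labels give the embryos as C57/DBA F1, of pooled sexes and wild type, and beside their Cre allele they carried a Cre-dependent Sun1-GFP reporter under the CAG promoter in the Rosa26 locus. For iRGCs, cells with GFP were sorted out of the retinas of the Slc6a4-Cre line, in which an artificial chromosome with the regulatory region of the serotonin transporter gene drives Cre (labelled Sert). For cRGCs they were sorted out of Pou4f2-Cre retinas after the ventrotemporal region had been cut away, and here Cre was inserted into the Pou4f2 locus (labelled Brn3b). The reporter stays on in all descendants of a cell that has had Cre, and the retinas were dissociated with collagenase and trypsin before sorting. The population therefore goes together with the Cre line and with the retinal region in every comparison, and these cannot be told apart.

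An integrin is a membrane receptor made of an α and a β subunit. The α subunit largely sets which ligand is bound, and the tail of the β subunit reaches the actin cytoskeleton through adaptors such as talin and kindlin. A laminin is a cross-shaped trimer of an α, a β and a γ chain, and the α chain carries the main integrin binding site. In the embryonic retina the inner limiting membrane, a laminin-rich basement membrane on which the endfeet of progenitors rest and along which ganglion cell axons grow, borders the vitreous. Retinal axons grow readily on laminin in culture, through integrins that contain the β1 subunit.

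The libraries held between 28193178 and 33638083 counts on genes. Levels are given as CPM, the count of a gene scaled by library size and edgeR's TMM factor, always in the order replicate 1, 2 and 3. Log2 fold changes set iRGCs over cRGCs and come with their standard error (SE). The threshold was an adjusted p-value below 0.1 in edgeR's quasi-likelihood test, adjusted over all 15941 genes tested. No label says whether the libraries of a population came from separate litters or sorts, so p-values measure the spread between these libraries, which may be technical. In bulk RNA, fewer cells of a type and less RNA per cell cannot be told apart.

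The genes that define the populations were read first. Zic2, the transcription factor of the ipsilateral program, was at 133, 173 and 157 CPM in iRGCs and 56.9, 60.2 and 65.6 CPM in cRGCs (log2 fold change 1.34, SE 0.13, adjusted p = 0.000209). Pou4f1, a transcription factor typical of crossing cells, was at 107, 116 and 181 CPM in iRGCs and 860.1, 671 and 431 CPM in cRGCs (log2 fold change -2.28, SE 0.28, adjusted p = 0.000400). Pou4f2, whose locus drives Cre in the cRGC line, was at 74.7, 133 and 98.1 CPM in iRGCs and 191, 196 and 293 CPM in cRGCs (log2 fold change -1.15, SE 0.23, adjusted p = 0.00424). In Zic2, Pou4f1 and Pou4f2 the libraries of the populations did not overlap and the direction was that of the labels. Nrp2, a semaphorin and VEGF receptor that the study describes in Zic2-positive cells, was lower in iRGCs, at 16.2, 24.05 and 33.1 CPM in iRGCs and 46.8, 45.6 and 31.01 CPM in cRGCs, with overlapping libraries (log2 fold change -0.75, SE 0.27, adjusted p = 0.0528). The study's evidence on Nrp2 was of other kinds, namely in situ hybridization, Zic2 binding at its promoter and a rise of its mRNA after ectopic Zic2. Slc6a4 itself did not separate the populations, with 2.06, 33.3 and 116 CPM in iRGCs and 48.04, 35.4 and 30.5 CPM in cRGCs (log2 fold change 0.41, SE 0.93, adjusted p = 0.768). The iRGC libraries spanned the whole range, and iRGC replicate 1 held only 64 counts of this gene. Without that library the log2 fold change of Slc6a4 was 0.98 (adjusted p = 0.128), and without iRGC replicate 3 it was -1.10 (adjusted p = 0.347). iRGC replicates 1 and 2 therefore do not show the marker of their own Cre line above the cRGC libraries. The counts of integrins and laminins below are also given without each of them.

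The populations differed in other cell type markers too. The 12 retinal progenitor markers summed to 9009, 7893 and 6700 CPM in iRGCs and to 734, 2019 and 1253 CPM in cRGCs, and the 12 retinal ganglion cell markers to 2686, 3745 and 5959 CPM in iRGCs and 15224, 13803 and 16749 CPM in cRGCs. All 12 progenitor markers were past the threshold and higher in iRGCs, and 11 of the 12 ganglion cell markers were lower. Of all tested genes, 23.3% were past it as higher and 23.1% as lower. Thy1 was the exception, at 6.17, 1.33 and 13.8 CPM in iRGCs and 46.4, 39.1 and 3.19 CPM in cRGCs (adjusted p = 0.121). The iRGC libraries were thus richer in progenitor transcripts and poorer in ganglion cell transcripts than the cRGC libraries, and the part of this difference in the results below was not tested.

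Of the 37 genes, 29 had enough counts to be tested, and 18 of these were past the threshold, compared with 46.4% of all tested genes. They split into 14 that were higher in iRGCs (background 23.3%) and 4 that were lower (background 23.1%). The integrins that were higher were Itgav, Itga5, Itga8, Itga6, Itga1, Itgb4, Itgb5 and Itgb8, and those that were lower were Itga3, Itga7 and Itga9. Among the laminins Lama1, Lama2, Lama5, Lamb1, Lamb2 and Lamc1 were higher, and only Lama3 was lower. The median log2 fold change was 1.04 over the 18 tested integrins and 1.92 over the 11 laminins, beside -0.0031 over all tested genes. In 13 of the 14 higher genes, all but Lamb1, and in all 4 lower genes the libraries of the populations did not overlap. Over all tested genes 55.3% had no overlap, 27.1% with iRGCs higher and 28.2% with iRGCs lower. The share of all genes past the threshold was high in this comparison, so that a gene past it is common here.

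Without iRGC replicate 1 the same test called 7 integrins higher, 3 integrins lower, 7 laminins higher and 1 laminin lower, with 22.2% of all tested genes higher and 22.6% lower. Without iRGC replicate 2 it called 5 integrins higher, 5 integrins lower, 4 laminins higher and 0 laminins lower, with 20.6% of all tested genes higher and 21.2% lower. In that fit Itga1, Itga8, Itgb4, Lama2, Lama3 and Lamb1 fell short, and Itga4 and Itgal were past the threshold as lower. The log2 fold changes of Itga8, Itgb4 and Lama3 were 1.81, 2.53 and -0.91 there, beside 1.94, 2.26 and -1.03 with all libraries. Those of Itga1, Lama2 and Lamb1 were 2.04, 1.40 and 0.97, beside 5.30, 1.92 and 3.00. In all 14 alternative fits, 12 genes were past the threshold, namely Itga3, Itga5, Itga6, Itga7, Itga9, Itgav, Itgb5, Itgb8, Lama1, Lama5, Lamb2 and Lamc1. The share of all tested genes past it in every fit was not counted, so nothing particular to integrins and laminins is read from this count.

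**Figure D1:**
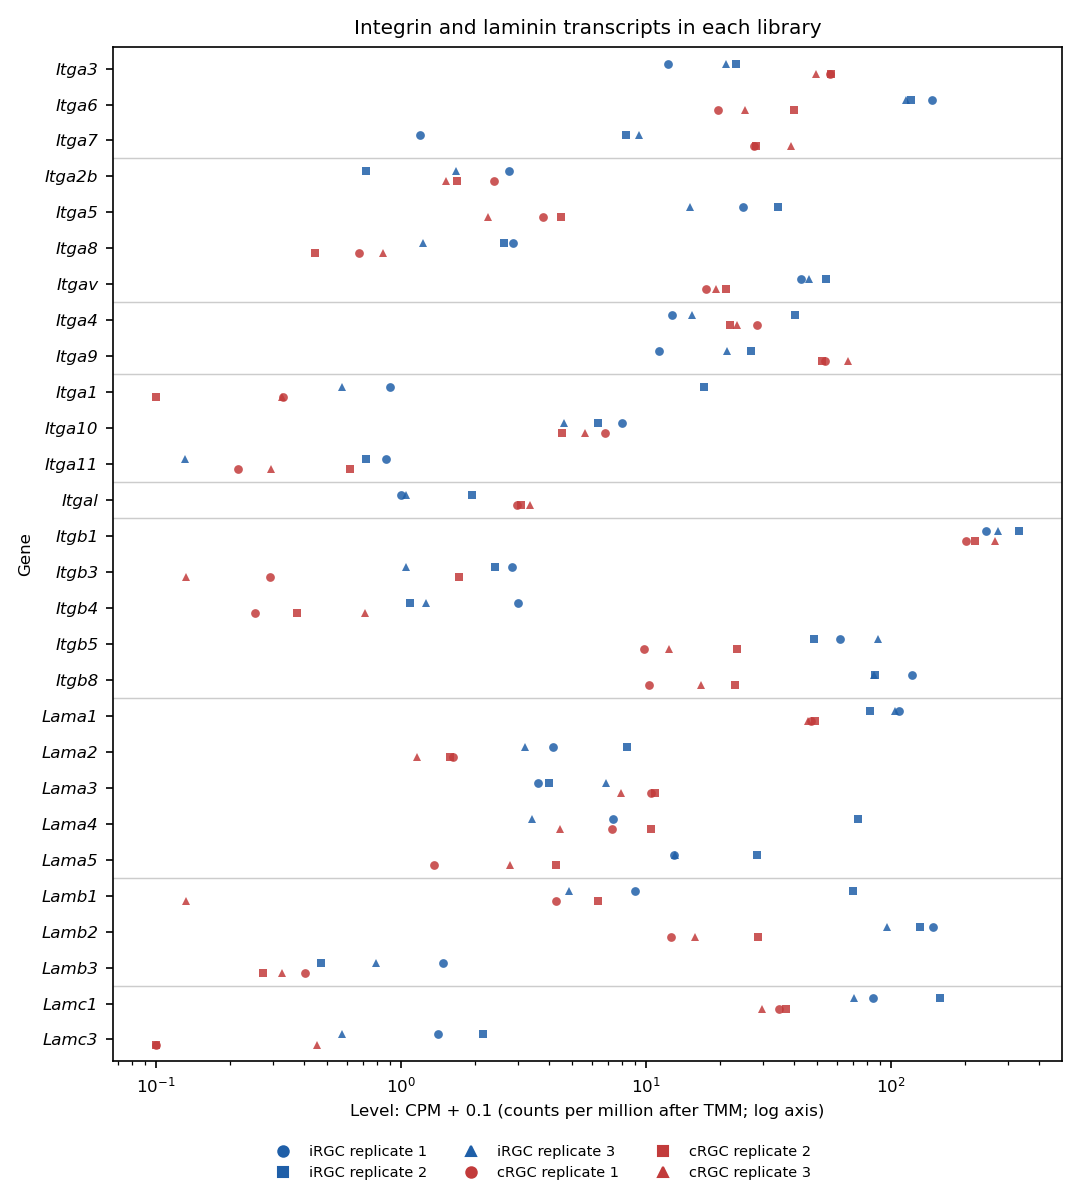
Level of the tested integrin and laminin genes reported here in each of the 6 libraries, as CPM + 0.1 on a log axis, with iRGC libraries in blue, cRGC libraries in red and a marker shape per replicate. Itga6, Itgb5, Itgb8, Lamb2, Lama5 and Itga5 lie to the right in iRGCs and Itga3, Itga7 and Itga9 in cRGCs, and Lama4, Lamb1 and Itga1 have a single high point, iRGC replicate 2.

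The promoters of the integrin and laminin genes, called or not, were looked at for the GC box. Sp1 family factors bind this box, and it was searched for as the letters GGGCGG on both strands. The letters TATAAA of a TATA box were searched for likewise, and the motifs cannot overlap. RefSeq windows of 250 bases before the start were at hand for 23 of the 37 genes, in 26 windows. Of the genes with a call in every alternative, Itga6, Itga7, Lama1 and Lamc1 had no such window. A GC box stood in 9 of the 26 windows (34.6%), compared with 32.7% of all 32851 promoter windows of that length. TATAAA was in 0 of the 26, compared with 12.4% of all windows, which says only that these letters were not in these windows. Of the genes past the threshold, 4 of the 10 windows of higher genes and 2 of the 3 windows of lower genes held a GC box, both of them windows of Itga3 and the other that of Itga9. The promoters below belong to those genes with a call in every alternative that had at least 2 GC boxes upstream of the start, and are shown as examples of the motif in 1 lower gene (Itga3) and 3 higher ones (Itga5, Itgb5 and Lama5). Capitals mark the GC boxes, each sequence is 5′ to 3′ on the strand of its gene in GRCm38.p6, and only bases upstream of the transcript are shown. The Itga3 stretch is chr11:95076802-95076964 (minus strand), Itga5 is chr15:103366792-103367041 (minus), Itgb5 is chr16:33829415-33829664 (plus) and Lama5 is chr2:180225860-180226109 (minus).
Itga3: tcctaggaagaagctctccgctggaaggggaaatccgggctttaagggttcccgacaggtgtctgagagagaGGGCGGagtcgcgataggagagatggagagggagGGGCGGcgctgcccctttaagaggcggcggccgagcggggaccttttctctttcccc
Itga5: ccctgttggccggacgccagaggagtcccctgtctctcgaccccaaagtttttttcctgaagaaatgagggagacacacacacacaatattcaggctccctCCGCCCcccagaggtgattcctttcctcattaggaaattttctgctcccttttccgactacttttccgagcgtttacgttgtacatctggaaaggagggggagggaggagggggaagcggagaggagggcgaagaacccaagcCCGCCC
Itgb5: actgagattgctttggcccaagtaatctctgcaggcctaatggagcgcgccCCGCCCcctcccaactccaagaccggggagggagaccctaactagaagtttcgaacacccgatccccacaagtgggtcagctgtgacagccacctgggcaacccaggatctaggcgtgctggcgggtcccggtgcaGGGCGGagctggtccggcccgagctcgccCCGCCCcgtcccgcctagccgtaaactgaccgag
Lama5: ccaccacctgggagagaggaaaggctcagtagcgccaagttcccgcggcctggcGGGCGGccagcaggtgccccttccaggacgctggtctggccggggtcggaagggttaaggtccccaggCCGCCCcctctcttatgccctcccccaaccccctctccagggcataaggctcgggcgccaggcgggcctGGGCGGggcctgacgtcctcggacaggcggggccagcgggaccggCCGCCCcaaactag
The Lama5 stretch held 4 GC boxes and 72.4% G and C, Itgb5 held 3 and 65.2%, Itga3 held 2 in its shorter stretch and 62.6%, and Itga5 held 2 and 55.6%.

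The laminin-binding α subunits moved in opposite directions. Itga6, whose product pairs with β1 or β4 and is the main laminin receptor of many epithelia and progenitors, was 4.51-fold higher in iRGCs, while Itga3 and Itga7 were 2.87-fold and 5.10-fold higher in cRGCs. Itga6 (ENSMUSG00000027111, chr2:71745616-71858416, plus strand) was at 147, 120.0 and 115 CPM in iRGCs and 19.5, 39.9 and 25.2 CPM in cRGCs (log2 fold change 2.17, SE 0.25, adjusted p = 0.000294). The lowest iRGC library lay well above the highest cRGC library, which was replicate 2. Itga3 (ENSMUSG00000001507, chr11:95044474-95076801, minus strand), whose product with β1 also binds laminins, was at 12.2, 23.2 and 21.1 CPM in iRGCs and 56.4, 56.6 and 49.3 CPM in cRGCs (log2 fold change -1.52, SE 0.23, adjusted p = 0.000991). Itga3 was close to even among the cRGC libraries and lowest in iRGC replicate 1. Itga7 (ENSMUSG00000025348, chr10:128933818-128958282, plus strand), best known as a laminin receptor of muscle and also made in neurons, was at 1.09, 8.18 and 9.26 CPM in iRGCs and 27.6, 28.1 and 38.94 CPM in cRGCs (log2 fold change -2.35, SE 0.61, adjusted p = 0.0136). It was again lowest in iRGC replicate 1, at 34 counts, and the populations did not overlap. In each fit that left out a library the direction of these genes stayed the same, with log2 fold changes of 1.97 to 2.53 for Itga6, -1.70 to -1.29 for Itga3 and -2.76 to -1.85 for Itga7.

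The α subunits that recognise the RGD motif of fibronectin and vitronectin were higher in iRGCs in 3 of 4 cases. Itga5 (ENSMUSG00000000555, chr15:103344286-103366763, minus strand), the fibronectin receptor subunit, was at 24.6, 34.3 and 15.02 CPM in iRGCs and 3.69, 4.38 and 2.16 CPM in cRGCs (log2 fold change 2.86, SE 0.38, adjusted p = 0.000537). Itgav (ENSMUSG00000027087, chr2:83724397-83806916, plus strand), which pairs with several β subunits and binds vitronectin and latent TGF-β, was at 42.7, 53.9 and 45.9 CPM in iRGCs and 17.5, 20.99 and 19.2 CPM in cRGCs (log2 fold change 1.30, SE 0.15, adjusted p = 0.000349). In both genes every iRGC library was above every cRGC library, and both had their highest iRGC level in replicate 2. Itga8, a receptor subunit for nephronectin, was low in all libraries, at 2.76, 2.53 and 1.13 CPM in iRGCs and 0.576, 0.345 and 0.741 CPM in cRGCs (log2 fold change 1.94, SE 0.80, adjusted p = 0.0848). Its libraries did not overlap, but it fell short of the threshold in 8 of 14 alternatives, and 5.05% of its exonic bases also belong to another gene. Itga2b, the platelet receptor subunit, was at 2.67, 0.617 and 1.57 CPM in iRGCs and 2.30, 1.59 and 1.42 CPM in cRGCs and was not past the threshold (adjusted p = 0.915).

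Itga4 and Itga9 form the subfamily that binds fibronectin splice forms, tenascin and VCAM1. Itga9 (ENSMUSG00000039115, chr9:118606690-118901003, plus strand) was at 11.2, 26.6 and 21.3 CPM in iRGCs and 53.5, 52.1 and 66.8 CPM in cRGCs (log2 fold change -1.54, SE 0.29, adjusted p = 0.00263). No cRGC library was below 52.1 CPM and no iRGC library above 26.6 CPM. Itga4 was at 12.6, 40.3 and 15.2 CPM in iRGCs and 28.2, 21.8 and 23.3 CPM in cRGCs (log2 fold change -0.11, SE 0.40, adjusted p = 0.863). Its highest and its lowest level were both in iRGC libraries, replicates 2 and 1. Without iRGC replicate 2 Itga4 was at -0.81 on the log2 scale (SE 0.21, adjusted p = 0.0225), and 8.04% of its exonic bases are shared with Cerkl.

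Collagen-binding and leukocyte integrins were scarce. Itga1, a collagen receptor subunit of mural and other mesenchymal cells, was at 0.803, 17.1 and 0.472 CPM in iRGCs and 0.230, 0 and 0.226 CPM in cRGCs (log2 fold change 5.30, SE 1.59, adjusted p = 0.0271). A single library, iRGC replicate 2, carried nearly all of its counts, and without it the log2 fold change was 2.04 (adjusted p = 0.363). Itga10, known from cartilage, was at 7.87, 6.27 and 4.504 CPM in iRGCs and 6.68, 4.45 and 5.54 CPM in cRGCs (adjusted p = 0.760), and 33.5% of its exonic bases also belong to another gene, so that its level is uncertain. Itga11 did not exceed 0.771 CPM in any library (adjusted p = 0.701). Itga2, the other collagen receptor subunit, had too few counts to be tested, at 0.932, 1.85 and 0.283 CPM in iRGCs and 0.115, 0 and 0 CPM in cRGCs. Itgal, the α subunit of the lymphocyte receptor LFA-1, was at 0.900, 1.85 and 0.945 CPM in iRGCs and 2.88, 3.00 and 3.26 CPM in cRGCs (log2 fold change -1.30, SE 0.60, adjusted p = 0.119). It was past the threshold as lower in 4 of 14 alternatives, among them DESeq2 (adjusted p = 0.0577) and limma voom (0.0854). Its libraries did not overlap, although its partner subunit Itgb2, shared by the leukocyte integrins, was at 0, 0.370 and 0.0630 CPM in iRGCs and 0, 0.0345 and 0 CPM in cRGCs and was not tested. Itgam, Itgax, Itgad, Itgae, Itgb6 and Itgb7 were not tested either and did not exceed 1.02 CPM in any library, and 68.7% of the exonic bases of Itgam also belong to another gene.

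**Figure D2:**
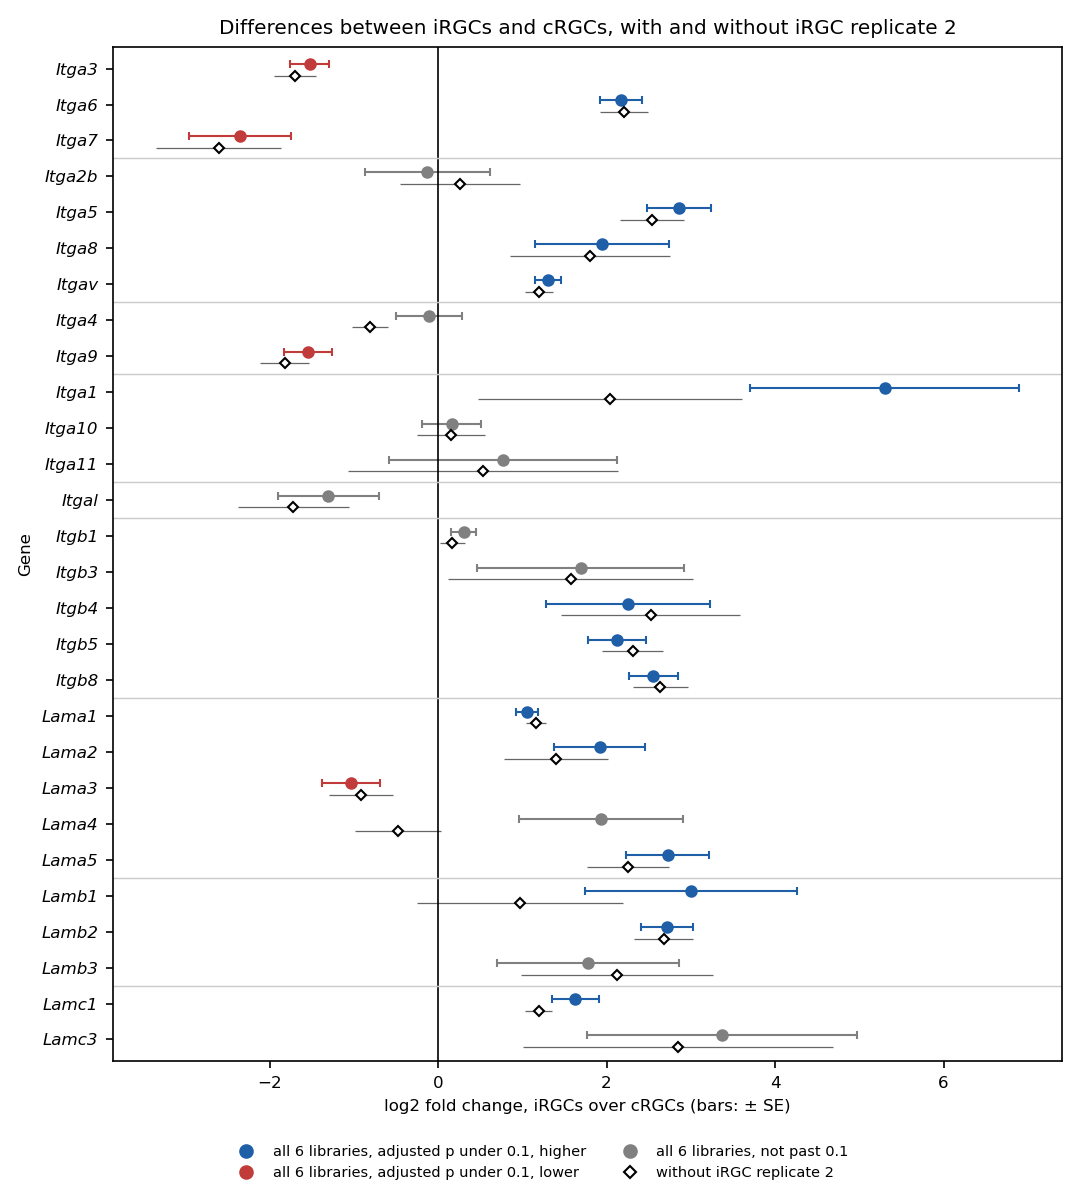
Log2 fold change of the tested genes reported here, iRGCs over cRGCs, with bars of 1 SE, for all 6 libraries (filled points, blue for higher, red for lower and grey for genes not past 0.1) and without iRGC replicate 2 (open diamonds). Itga6, Itga3, Itga7, Itga9, Itgb5, Itgb8, Lama1 and Lamb2 hardly shift without that library, while Itga1, Lamb1 and Lama4 move left by over 2 log2 units, with Lama4 going from 1.93 to -0.47.

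Among the β subunits Itgb4, Itgb5 and Itgb8 were higher in iRGCs, and the common partner Itgb1 was not past the threshold. Itgb1, the partner of most α subunits named here, was the most abundant member in every library, at 243, 332 and 273 CPM in iRGCs and 203, 220.2 and 265 CPM in cRGCs (log2 fold change 0.30, SE 0.15, adjusted p = 0.141), and its libraries overlapped. It was past the threshold as higher in 4 of 14 alternatives, namely without iRGC replicate 1 (adjusted p = 0.0675), without cRGC replicate 3 (0.0713), with DESeq2 (0.09999) and with at least 10 counts in every library (0.0954). Itgb8 (ENSMUSG00000025321, chr12:119158022-119238802, minus strand), which pairs with αv and is made by neural progenitors, was at 122, 86.2 and 84.7 CPM in iRGCs and 10.1, 22.99 and 16.6 CPM in cRGCs (log2 fold change 2.56, SE 0.29, adjusted p = 0.000287). Itgb5 (ENSMUSG00000022817, chr16:33829665-33949338, plus strand), another partner of αv, was at 61.7, 48.4 and 88.4 CPM in iRGCs and 9.68, 23.4 and 12.3 CPM in cRGCs (log2 fold change 2.13, SE 0.34, adjusted p = 0.00137). The iRGC libraries of these genes were all above the cRGC libraries, and cRGC replicate 2 was the highest cRGC library in both. Itgb4, the hemidesmosome subunit that pairs with α6, was at 2.89, 0.988 and 1.17 CPM in iRGCs and 0.154, 0.276 and 0.612 CPM in cRGCs (log2 fold change 2.26, SE 0.97, adjusted p = 0.0988). It did not overlap between populations but fell short of the threshold in 9 of the 13 alternatives in which it was tested (log2 fold change 1.61 without iRGC replicate 1 and 2.96 without cRGC replicate 3), and 7.66% of its exonic bases also belong to another gene. Itgb3, the platelet and endothelial partner of αv, was at 2.73, 2.32 and 0.945 CPM in iRGCs and 0.192, 1.62 and 0.0322 CPM in cRGCs and was not past the threshold (adjusted p = 0.317). Its overlap came from cRGC replicate 2, without which its log2 fold change was 4.17 (adjusted p = 0.0460).

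Transcripts of laminin chains, the ligands, were more abundant in iRGCs for most chains. Lama1, the α chain of the early embryonic laminin and of the inner limiting membrane, was the most abundant α chain in all libraries. Lama1 (ENSMUSG00000032796, chr17:67697259-67822647, plus strand) was at 107, 81.9 and 103 CPM in iRGCs and 46.8, 48.8 and 45.5 CPM in cRGCs (log2 fold change 1.05, SE 0.13, adjusted p = 0.000440). The cRGC libraries lay close together and all iRGC libraries were above them. Lama5 (ENSMUSG00000015647, chr2:180176373-180225859, minus strand), the α chain of many epithelial and vascular basement membranes, was at 12.9, 28.1 and 13.01 CPM in iRGCs and 1.27, 4.21 and 2.68 CPM in cRGCs (log2 fold change 2.73, SE 0.49, adjusted p = 0.00228). Lama2, the α chain of muscle and Schwann cell laminin, was at 4.08, 8.24 and 3.12 CPM in iRGCs and 1.54, 1.48 and 1.06 CPM in cRGCs (log2 fold change 1.92, SE 0.54, adjusted p = 0.0203). Both were highest in iRGC replicate 2, and without it Lama5 still had a log2 fold change of 2.25 (adjusted p = 0.0110) whereas Lama2 was at 1.40 (adjusted p = 0.124). Lama3, the α chain of epidermal laminin, was the only laminin that was lower in iRGCs, at 3.53, 3.92 and 6.74 CPM in iRGCs and 10.4, 10.8 and 7.83 CPM in cRGCs (log2 fold change -1.03, SE 0.34, adjusted p = 0.0408). Its libraries came close, with iRGC replicate 3 just below cRGC replicate 3, and the call was lost without iRGC replicate 2 (adjusted p = 0.107), without cRGC replicate 1 (0.101) and without cRGC replicate 2 (0.126). Lama4, the α chain of the vascular basement membrane, was at 7.23, 73.04 and 3.31 CPM in iRGCs and 7.18, 10.4 and 4.35 CPM in cRGCs (log2 fold change 1.93, SE 0.97, adjusted p = 0.152). The other iRGC libraries lay within the range of the cRGC libraries or below it, and without iRGC replicate 2 the log2 fold change was -0.47 (adjusted p = 0.523). In the fits that kept that library it was past the threshold as higher without iRGC replicate 1 (2.39 on the log2 scale, adjusted p = 0.0903), without iRGC replicate 3 (2.46, adjusted p = 0.0353) and with no filter on low counts (1.92, adjusted p = 0.0499).

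Among the β and γ chains Lamb1, Lamb2 and Lamc1 were higher in iRGCs. Lamb2 (ENSMUSG00000052911, chr9:108479736-108490530, plus strand), the β chain of the inner limiting membrane and of synaptic laminins, was at 148, 131 and 96.03 CPM in iRGCs and 12.6, 28.6 and 15.8 CPM in cRGCs (log2 fold change 2.72, SE 0.31, adjusted p = 0.000287). All iRGC libraries were more than 3 times the highest cRGC library, replicate 2. Lamc1 (ENSMUSG00000026478, chr1:153218922-153332786, minus strand), the γ chain of most laminin trimers, was at 84.4, 159 and 70.5 CPM in iRGCs and 34.7, 37.1 and 29.7 CPM in cRGCs (log2 fold change 1.63, SE 0.28, adjusted p = 0.00186). iRGC replicate 2 stood out at the top, and without it the log2 fold change was 1.20 (adjusted p = 0.00222). Lamb1, the β chain of early embryonic and vascular laminins, was at 8.90, 69.9 and 4.76 CPM in iRGCs and 4.19, 6.24 and 0.0322 CPM in cRGCs (log2 fold change 3.00, SE 1.26, adjusted p = 0.0916). Its populations overlapped, and without iRGC replicate 2 the log2 fold change was 0.97 (adjusted p = 0.589) and without cRGC replicate 2 it was 3.78. Lamb1 was past the threshold in 8 of the 13 alternatives in which it was tested. It also fell short with DESeq2 (adjusted p = 0.145), with limma voom (0.217), without cRGC replicate 1 (0.181) and without cRGC replicate 3 (0.131). cRGC replicate 3 held a single count of Lamb1, far from the 109 and 181 counts of the other cRGC libraries. Lamb3 and Lamc3 were scarce and not past the threshold with all 6 libraries. Lamb3 was at 1.38, 0.370 and 0.693 CPM in iRGCs and 0.307, 0.172 and 0.226 CPM in cRGCs (adjusted p = 0.231) and Lamc3 at 1.32, 2.07 and 0.472 CPM in iRGCs and 0, 0 and 0.355 CPM in cRGCs (log2 fold change 3.37, SE 1.61, adjusted p = 0.132). The only cRGC counts of Lamc3 were in replicate 3, and it was past the threshold as higher without that library (adjusted p = 0.0270), with DESeq2 (0.0621) and with limma voom (0.0705). Without that library the cRGC libraries left held 0 counts of Lamc3, so its log2 fold change of 8.29 there rests on no measured cRGC level.

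To compare the genes with each other, CPM were divided by the exonic length of the gene in kilobases. On this per-kilobase level scale Itgb1 led in both populations, at 69.3 ± 11.1 in iRGCs and 56.2 ± 7.88 in cRGCs (SD, n = 3). In iRGCs Lamb2 (20.5 ± 4.35), Itgb5 (18.6 ± 5.73), Itga6 (14.1 ± 1.91), Lamc1 (12.6 ± 5.74) and Lama1 (10.1 ± 1.42) came next, and their ranges overlapped from each to the next. In cRGCs the order was Itga3 (9.47 ± 0.732), Itga9 (7.47 ± 1.05), Lama1 (4.86 ± 0.173), Itgb5 (4.26 ± 2.06) and Lamc1 (4.09 ± 0.458). The ranges of Itga3 and Itga9 touched, the range of Itgb5 overlapped those of Lama1 and Lamc1, Lama1 lay above Lamc1 in every cRGC library, and Itga9 lay above Lama1 in every cRGC library. By mean per-kilobase level the leading α subunit was Itga6 in iRGCs and Itga3 in cRGCs, although Itga9 (8.68) was just above Itga3 (8.63) in cRGC replicate 3. The summed per-kilobase level of all α subunits was 34.5 ± 5.19 in iRGCs and 30.2 ± 0.945 in cRGCs, with overlapping libraries. For β subunits the sums were 97.5 ± 7.76 and 62.2 ± 8.42, for laminin α chains 14.7 ± 2.72 and 6.69 ± 0.643, for laminin β chains 23.5 ± 6.36 and 3.51 ± 1.61 and for laminin γ chains 13.1 ± 5.73 and 4.303 ± 0.600, and in each of these the libraries did not overlap.

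The make-up of each family does not depend on the scaling between libraries. Laminin-binding subunits took 53.4 ± 6.77% of the summed α level in iRGCs and 54.5 ± 2.91% in cRGCs (exact permutation test, two-sided, n = 3 per population, p = 0.8). Within these subunits Itga6 took 77.5 ± 8.85% in iRGCs and 18.7 ± 5.55% in cRGCs, Itga3 took 18.2 ± 5.82% and 57.6 ± 5.63%, and Itga7 took 4.25 ± 3.09% and 23.7 ± 5.28%. The libraries did not overlap for any of the 3 subunits (exact permutation p = 0.1 each, the smallest that 3 libraries against 3 allow, and 0.2 after Benjamini-Hochberg adjustment over 22 shares). The laminin-binding share of the α level was thus close in the populations on this scale, while its composition was not. On the CPM scale the difference in that share was 4.55 percentage points toward iRGCs in place of -1.16. RGD-binding subunits took 28.8 ± 2.86% of the α level in iRGCs and 9.54 ± 1.01% in cRGCs, and Itga4 with Itga9 took 11.9 ± 4.32% and 30.5 ± 3.26% (exact permutation p = 0.1 for each). Collagen-binding subunits took 4.98 ± 1.66% and 3.78 ± 0.751% (exact permutation p = 0.4), and leukocyte subunits 0.969 ± 0.619% and 1.68 ± 0.0974% (exact permutation p = 0.2).

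Among the β subunits Itgb1 took 70.8 ± 6.55% in iRGCs and 90.4 ± 4.23% in cRGCs, Itgb5 took 19.2 ± 5.89% and 6.83 ± 3.14%, and Itgb8 took 9.19 ± 2.78% and 2.38 ± 0.817% (exact permutation p = 0.1 for each, n = 3 per population). Of the laminin α level, Lama1 took 82.7, 47.4 and 82.7% in iRGCs and 73.2, 68.5 and 77.2% in cRGCs (exact permutation p = 1). Lama4 took 33.9% in iRGC replicate 2 and between 2.12% and 11.7% in the other libraries and the low share of Lama1 was in the same library. Lama5 took 10.4 ± 2.99% in iRGCs and 3.52 ± 1.69% in cRGCs and Lama2 2.06 ± 0.695% and 1.24 ± 0.177%, while Lama3 took 3.12 ± 1.52% and 13.4 ± 1.36% (exact permutation p = 0.1 for each). Lamb2 was the main β chain, with 89.1 ± 12.04% and 89.3 ± 8.64% (exact permutation p = 1), and Lamc1 the main γ chain, with 96.4 ± 2.71% and 95.2 ± 3.09% (exact permutation p = 0.5).

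**Figure D3:**
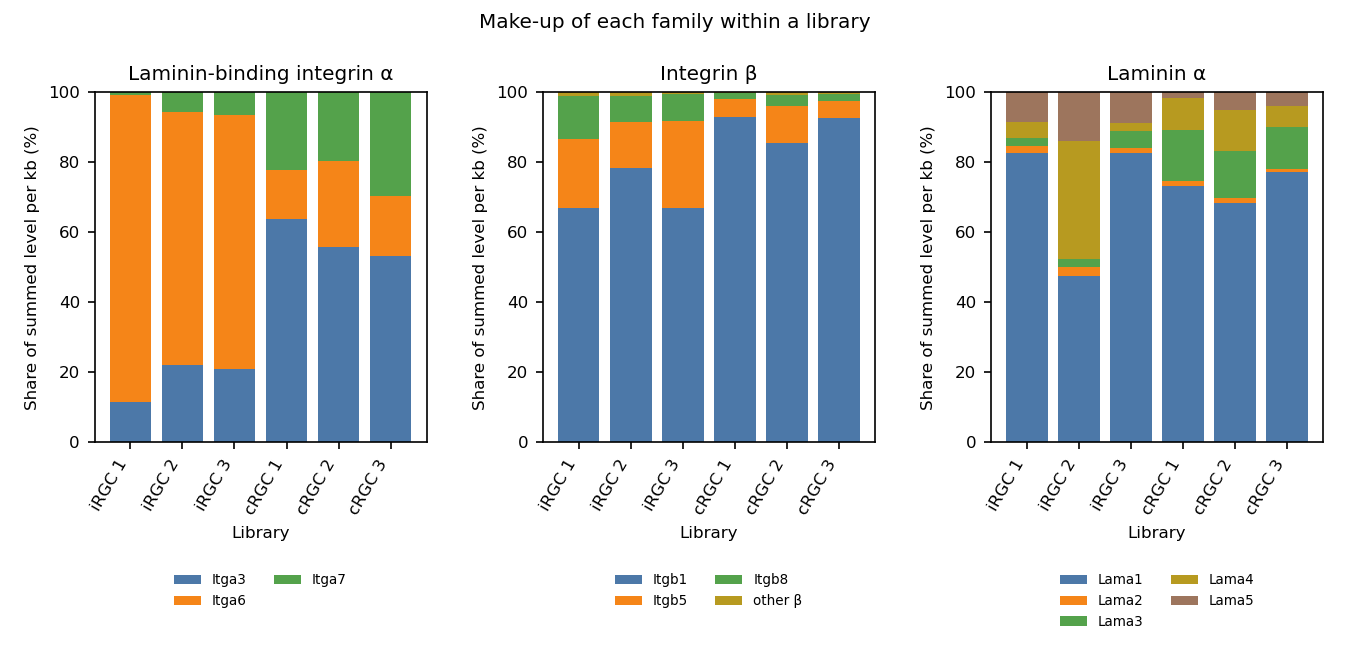
Share of the summed per-kilobase level taken by each gene within the laminin-binding integrin α subunits, the integrin β subunits and the laminin α chains, 1 bar per library. Itga6 fills most of the left panel in iRGCs (77.5% on average) and Itga3 in cRGCs (57.6%), Itgb1 leads the middle panel throughout, and iRGC replicate 2 stands apart in the right panel through Lama4 (33.9%).

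The libraries that set some of these values also stood apart in markers of other cells. Endothelial markers summed to 460, 690 and 434 CPM in iRGCs and 87.3, 109 and 70.8 CPM in cRGCs, with 6 of the 12 genes tested and all 6 past the threshold. Kdr, the VEGF receptor, which retinal progenitors also express, was the most abundant, at 366, 320 and 418 CPM in iRGCs and 83.6, 103 and 67.5 CPM in cRGCs. Without Kdr the remaining 11 endothelial genes summed to 94.9, 370 and 15.9 CPM in iRGCs and 3.72, 5.72 and 3.22 CPM in cRGCs. Cdh5, the defining cadherin of endothelium, was at 15.2, 81.2 and 0.157 CPM in iRGCs and 0, 0 and 0 CPM in cRGCs. iRGC replicate 2 was thus the highest in endothelial transcripts and iRGC replicate 3 held almost no Cdh5. Mural cell markers summed to 138, 278 and 121 CPM in iRGCs and 21.3, 32.4 and 23.7 CPM in cRGCs, with 7 of 10 tested and 4 higher. Notch3 was the most abundant, and made up most of the sum in iRGC replicates 1 and 3. Without Notch3 the mural genes summed to 25.8, 161 and 37.8 CPM in iRGCs and 4.30, 5.69 and 5.09 CPM in cRGCs. Rgs5, a pericyte gene, was at 3.76, 93.7 and 2.24 CPM in iRGCs and 0.0768, 0.0345 and 0.322 CPM in cRGCs. Not every mural gene peaked in iRGC replicate 2, since Anpep was at 3.41, 1.30 and 0.504 CPM and Acta2 at 0.0321, 0.401 and 1.57 CPM in iRGCs. Erythroid markers summed to 12.2, 92.6 and 15.2 CPM in iRGCs and 0, 5.10 and 0.258 CPM in cRGCs, led by Hbb-bs, with 4 of 6 tested and 4 higher. The summed vascular and erythroid markers were therefore highest in the library that carried Itga1, Lama4 and Lamb1. Of the 14 genes called higher, 7 had their top iRGC level in replicate 2, compared with 29.4% of all genes called higher. Markers near 0 counts in cRGCs could enter the test only through the iRGC libraries. Nothing is therefore read from how many of these markers were called higher, beside 23.3% of all tested genes. The same holds for the microglial and fibroblast markers below.

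Microglia and macrophage markers summed to 29.7, 36.0 and 26.4 CPM in iRGCs and 7.26, 8.34 and 5.06 CPM in cRGCs, with 9 of 12 tested and 5 higher, led by Cd68. Itgam, their defining integrin, was at 0, 0.0926 and 0.441 CPM in iRGCs and 0, 0.138 and 0.129 CPM in cRGCs. Lymphocyte and other leukocyte markers summed to 0, 2.19 and 5.45 CPM in iRGCs and 4.15, 4.79 and 4.45 CPM in cRGCs. Most of this was Lck alone, at 0, 1.79 and 4.57 CPM in iRGCs and 4.15, 4.79 and 4.29 CPM in cRGCs. Without Lck the sums were 0, 0.401 and 0.882 CPM in iRGCs and 0, 0 and 0.161 CPM in cRGCs. Lck was the single gene tested of the 9, and Cd3e, Nkg7, S100a8 and S100a9 had 0 counts in all libraries, while Cd79a, a B cell receptor chain, had 0, 8 and 21 counts in iRGCs and 0, 0 and 5 in cRGCs. Of the 8 platelet markers only Gp1bb was tested and it was lower in iRGCs, at 13.97, 14.7 and 23.3 CPM in iRGCs and 44.2, 40.2 and 41.8 CPM in cRGCs, but 92.9% of its exonic bases also belong to another gene, so that its counts cannot be read as a platelet level. Pf4, a platelet chemokine, had 38, 21 and 4 counts in iRGCs and 0 in every cRGC library. Itga2b had 83, 20 and 50 counts in iRGCs and 60, 46 and 44 in cRGCs. Ppbp, Gp9, Gp1ba and Gp6 had 0 counts in all libraries. The part of leukocytes and platelets in the levels of Itgal and Itga2b was not tested. Fibroblast markers (8 genes, 3 tested, 1 higher, led by Pdgfra, Lum at 0) summed to 8.67, 21.1 and 6.87 CPM in iRGCs and 7.87, 7.76 and 7.06 CPM in cRGCs. Lens markers (7 genes, 2 tested, 0 past the threshold, led by Bfsp1, Mip and Lim2 at 0) stayed at or below 10.2 CPM in sum, as did pigment epithelium markers (7 genes, 4 tested, 0 past the threshold, led by Mitf) at 7.75 CPM. Astrocyte and optic stalk markers (6 genes, 3 tested, 1 lower, led by Aldh1l1) summed to 9.61 to 13.1 CPM.

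cRGC replicate 2 had the highest progenitor sum of the cRGC libraries, led in all libraries by Ccnd1, a cyclin of dividing cells, at 3358, 2646 and 2517 CPM in iRGCs and 277, 779 and 471 CPM in cRGCs. In 10 of the 14 integrin and laminin genes called higher in iRGCs it was also the highest cRGC library, compared with 54.4% of all genes called higher. The 4 genes that were lower were all lowest in iRGC replicate 1, which had the lowest ganglion cell sum, compared with 66% of all genes called lower. Both patterns are thus common among all called genes, and nothing particular to integrins and laminins is read from them. The part of progenitor, ganglion cell or vascular RNA in these values was not tested.

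**Figure D4:**
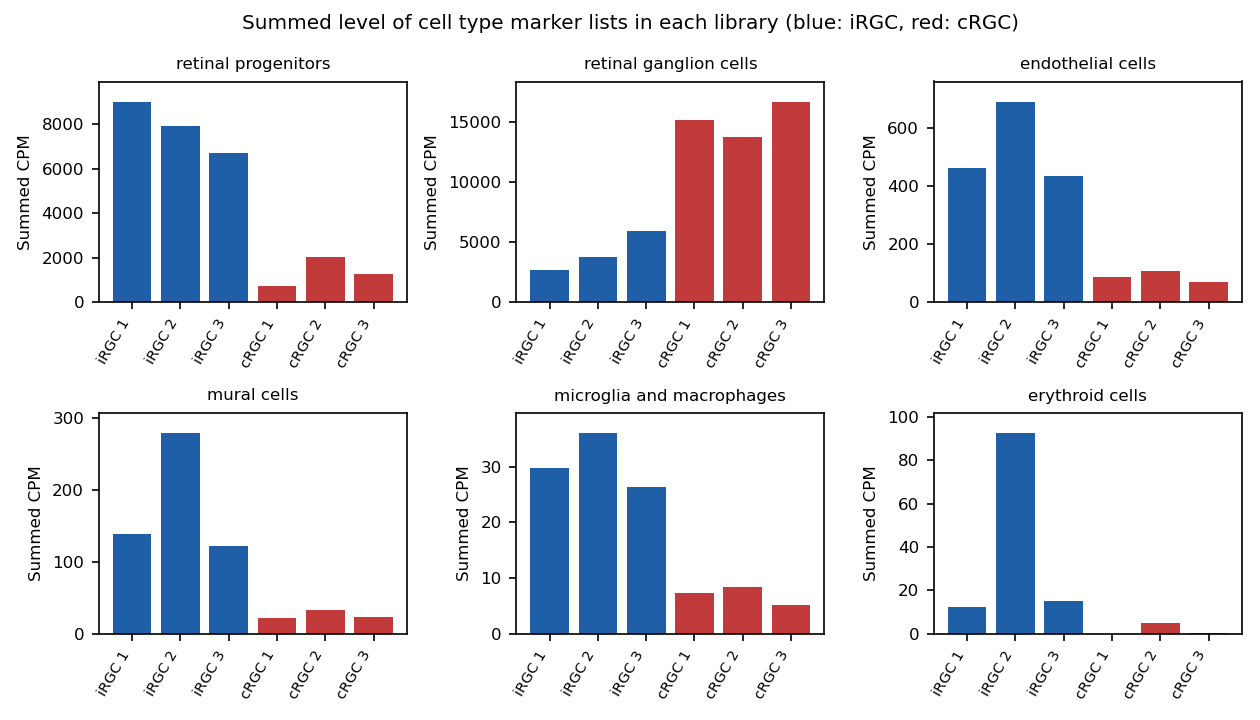
Summed CPM of 6 lists of cell type markers in each library, with iRGC libraries in blue and cRGC libraries in red and a linear axis from 0 per panel. Progenitor, endothelial, mural, microglial and erythroid sums are higher in the iRGC libraries and the ganglion cell sum is higher in the cRGC libraries, and iRGC replicate 2 has the top endothelial (690), mural (278) and erythroid (92.6) bars.

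Genes that work with integrins and laminins were read from 3 lists. Of the 38 adaptors and effectors that link β tails to actin and signalling, 37 were tested, 15 were higher in iRGCs, 9 were lower and 13 were not past the threshold (median log2 fold change 0.24). These are 40.5% higher and 24.3% lower, beside 23.3% and 23.1% of all tested genes. Nedd9, a docking protein of the Cas family, was at 85.4, 78.4 and 184 CPM in iRGCs and 6.41, 16.4 and 10.9 CPM in cRGCs (log2 fold change 3.37, SE 0.42, adjusted p = 0.000430). Tns1, a tensin that binds β tails, was at 20.8, 26.8 and 9.67 CPM in iRGCs and 1.11, 3.52 and 1.77 CPM in cRGCs (log2 fold change 3.16, SE 0.51, adjusted p = 0.00138), and Dock1, an exchange factor for Rac, rose by 2.83 on the log2 scale (SE 0.42, adjusted p = 0.000908). These were the largest rises among genes with a mean of at least 10 CPM, and each had no overlap. In the other direction Parvb, a parvin of the integrin-linked kinase complex, was at 54.5, 71.8 and 87.9 CPM in iRGCs and 145, 144 and 233 CPM in cRGCs (log2 fold change -1.29, SE 0.23, adjusted p = 0.00222). Fyn, a Src family kinase, stood at -0.81 on the log2 scale (SE 0.13, adjusted p = 0.00147), and Tln2, the talin enriched in neurons, at -0.77 (SE 0.25, adjusted p = 0.0370), the last with overlapping libraries. The call of Tln2 was lost without iRGC replicate 2 (log2 fold change -0.70, adjusted p = 0.116), cRGC replicate 1 (-0.53, 0.144) or cRGC replicate 2 (-0.69, 0.101). Without cRGC replicate 3 its log2 fold change was -1.03 (adjusted p = 0.00224). Without cRGC replicate 2 the log2 fold change of Tns1 was 3.74. Among the talins and parvins, members of both directions were past the threshold. Talin 1 (Tln1) was at 85.9, 119 and 72.1 CPM in iRGCs and 42.6, 60.1 and 53.4 CPM in cRGCs and higher in iRGCs (adjusted p = 0.0106) while Tln2 was lower, and Parva was higher (log2 fold change 0.90, adjusted p = 0.00109) while Parvb was lower and Parvg was at 0.062 on the log2 scale (adjusted p = 0.953). These pairs were chosen after their values were seen. The tested tensins (Tns1, Tns2 and Tns3), actinins (Actn1 and Actn4) and Kank proteins (Kank1 and Kank2) of the list were all higher in iRGCs. In the same list Src (log2 fold change -0.59), Bcar1 (-0.68), Git1 (-0.46) and Arhgef7 (-0.61) were lower, as Fyn was. These groups were also chosen after their values were seen.

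Of 28 other integrin ligands and basement membrane partners, 24 were tested, 14 were higher in iRGCs, 5 were lower and 5 were not past the threshold (median 1.75). These are 58.3% higher and 20.8% lower, beside 23.3% and 23.1% of all tested genes. Nid1, the nidogen that links laminin to collagen IV, was at 24.9, 116 and 6.42 CPM in iRGCs and 0.538, 3.79 and 1.93 CPM in cRGCs (log2 fold change 4.55, SE 1.05, adjusted p = 0.00809). Hspg2, the basement membrane proteoglycan perlecan, was at 86.03, 217 and 43.5 CPM in iRGCs and 7.60, 16.8 and 10.3 CPM in cRGCs (log2 fold change 3.32, SE 0.56, adjusted p = 0.00174). Both were highest in iRGC replicate 2, and without it the log2 fold change was 2.90 for Nid1 (adjusted p = 0.0276) and 2.48 for Hspg2 (adjusted p = 0.00332). Without cRGC replicate 2 that of Nid1 was 5.31. Ccn2, a matricellular integrin ligand, rose by 3.33 on the log2 scale (SE 0.29, adjusted p = 0.000205) without that pattern, and 23.2% of its exonic bases also belong to another gene. Among the lower genes Fras1, an adhesion protein of embryonic basement membranes, was at 21.6, 33.9 and 34.01 CPM in iRGCs and 129, 93.3 and 122 CPM in cRGCs (log2 fold change -1.95, SE 0.21, adjusted p = 0.000245). Edil3, an RGD ligand of αv integrins, was at 69.3, 96.6 and 135 CPM in iRGCs and 324, 297 and 348 CPM in cRGCs (log2 fold change -1.69, SE 0.22, adjusted p = 0.000479), and Reln, which encodes reelin, was at 342, 463 and 622 CPM in iRGCs and 1491, 1472 and 1187 CPM in cRGCs (log2 fold change -1.54, SE 0.21, adjusted p = 0.000563). Agrn, the proteoglycan agrin that binds laminin, was the most abundant gene of the list and also lower in iRGCs, at 704, 833 and 808 CPM in iRGCs and 1706, 1478 and 1792 CPM in cRGCs. The nidogen and perlecan genes were thus higher in iRGCs, as most laminin chains were, and agrin was lower.

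Laminin receptors other than integrins and the enzymes that glycosylate dystroglycan differed by small amounts. Of the 14 listed genes that were matched and tested, 3 were higher, 4 were lower and 7 were not past the threshold (median 0.065). These are 21.4% higher and 28.6% lower, near the 23.3% and 23.1% of all tested genes. Among those called, 0 had an absolute log2 fold change above 1. Dag1, dystroglycan itself, was at 193, 200.1 and 222 CPM in iRGCs and 106, 138 and 124 CPM in cRGCs (log2 fold change 0.75, SE 0.12, adjusted p = 0.00158). Utrn, the utrophin that ties dystroglycan to actin, rose by 0.83 on the log2 scale (SE 0.22, adjusted p = 0.0155) and Pomt2, an O-mannosyl transferase, by 0.49 (SE 0.15, adjusted p = 0.0281), a call that was lost without iRGC replicate 2 (adjusted p = 0.102). Among the lower genes Sgcb, a sarcoglycan, was at -0.52 (SE 0.17, adjusted p = 0.0413), and fell short without iRGC replicate 3 (adjusted p = 0.100) or cRGC replicate 3 (0.207).

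**Figure D5:**
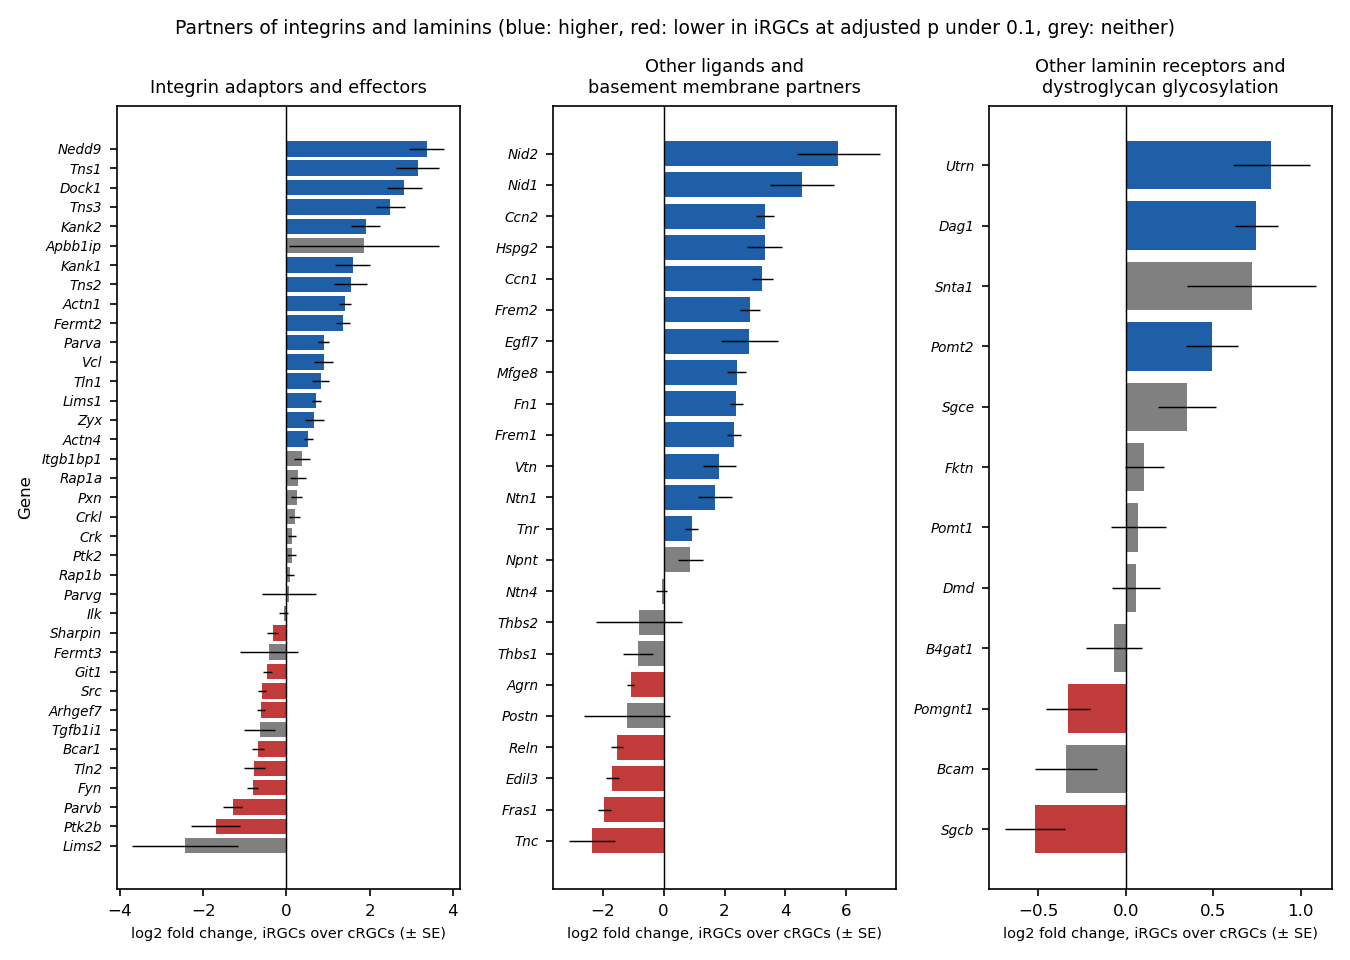
Log2 fold change of the tested partner genes reported here, iRGCs over cRGCs, with bars of 1 SE, in 3 panels with separate scales (genes at 0 counts in all libraries of a population are left out). Adaptors spread to both sides, most basement membrane partners lie to the right with Agrn, Reln, Edil3, Fras1 and Tnc in red to the left beside 4 grey genes, and the other laminin receptors shown all lie between -0.52 and 0.83.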

How the data were processed

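The 6 RNA-seq libraries of sorted E16.5 retinal cells, 3 per population, were analysed, and the 13 ATAC-seq samples were not analysed here. The authors aligned the reads with HISAT2 2.1.0 to mm10, counted them with HTSeq 0.11.1 on the Ensembl genes of GRCm38 and deposited the raw counts per gene, 1 table per library. Whether the counting used strand is not given in the sources used here, so overlapping and antisense genes may share reads. The rows of the tables that tally reads outside genes were left out of all sums and fits. Reads on no gene were 12.3% to 23.2% of the uniquely aligned reads, and ambiguous reads 0.857% to 0.989%. Symbols, positions and exon lengths came from GENCODE M21 of GRCm38, for 46574 of 47069 genes, and promoter sequences from RefSeq on GRCm38.p6.

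The counts were fitted with edgeR 4.0.16 under R 4.3.3 (filterByExpr, TMM factors of 1.03 to 1.10 in iRGCs and 0.921 to 0.953 in cRGCs, quasi-likelihood test without a block, Benjamini-Hochberg adjustment over 15941 genes). The call used an adjusted p-value under 0.1, the study's false discovery rate with DESeq2. The SE of a log2 fold change was its size over the square root of F. The biological coefficient of variation was 36.3%, which limits what could be detected for scarce transcripts. Shares of a family used CPM per kilobase of exon and exact permutation tests. Alternatives were DESeq2's size factors, upper quartile factors, DESeq2 1.42.0, limma 3.58.1 voom, 2 other filters on low counts, protein-coding genes alone, stricter thresholds, the replicate number as a block and each library left out in turn. The fits were tested on simulated data.

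Genes are named by a rule. Every integrin and laminin is counted, of each partner list the 3 called genes with the largest change in each direction (mean CPM of 10 or more) are named, and of each marker list the most abundant gene and those at 0 in all libraries. Of the members and lists, 5 genes enter the counts, sums and medians but are not reported here by name. Other partner and marker genes in the text (Tln1, Parva, Parvg, Tns2, Tns3, Actn1, Actn4, Kank1, Kank2, Src, Bcar1, Git1, Arhgef7, Agrn, Thy1, Cdh5, Rgs5, Anpep, Acta2, Cd79a, Pf4) were chosen after their values were seen. The genes and lists were chosen with earlier results of these data known. Figures were drawn with matplotlib 3.10.9.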

Additional observations from a re-analysis of the deposited data

How the results depend on the processing

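With limma voom and with the replicate block, 5 integrins were higher in iRGCs in place of 8, beside 23.1% and 20.8% of all tested genes. Leaving out each library in turn gave 5 to 7 integrins higher, 3 to 5 lower, 4 to 7 laminins higher and 0 to 1 lower, with 0 lower laminins without iRGC replicate 2, cRGC replicate 1 or cRGC replicate 2. In these refits 19.9% to 22.2% of all tested genes were higher and 19.5% to 24.8% lower. The same refits gave 14 to 16 adaptors higher and 6 to 9 lower, 11 to 14 ligands higher and 5 lower, and 3 laminin receptors higher and 2 to 4 lower. With an absolute log2 fold change above 1 required, 9 adaptors were higher and 2 lower, and 0 laminin receptors were higher and 0 lower, beside 12.1% and 11% of all tested genes, while with at least 10 counts in every library 5 laminin receptors were higher, beside 27.8%. Deviations from the population means correlated at -0.012, -0.024 and -0.055 between libraries of the same replicate number. Between libraries of different numbers they correlated at -0.008 to 0.035. Such values cannot show whether libraries of the same number shared a litter or sort. Under the replicate block Itga1, Itga8 and Itgb4 were not past the threshold. Of the log2 fold changes of genes not past the threshold, some changed sign. With a library left out Itga4 was at -0.81 to 0.18, Itga2b -0.69 to 0.26, Itga10 -0.045 to 0.35 and Lama4 -0.47 to 2.46. The laminin-binding share of the integrin α level, iRGCs minus cRGCs, was 4.55 percentage points on the CPM scale in place of -1.16, and -3.38 to 2.74 with a library left out, the highest without iRGC replicate 2, and it was also above 0 without cRGC replicate 2 (0.523). The difference in the share of Lama1 was -7.90 to 9.78 and that of Lama4 -5.57 to 10.3 in the same way. Both changed sign without iRGC replicate 2, and that of Lama1 also without cRGC replicate 3, at 0.108. Over the tested genes reported here and their alternatives, 331 of 383 log2 fold changes kept their direction and their side of the threshold, 29 lost it, 16 passed it and 7 changed sign. The causes were not tested. With 3 libraries per population, exact tests could not go below p = 0.1, and genes with low levels rested on few counts.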
